A study of Homo sapiens with 6 samples.

Results

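The genes described here are 45 cytosolic translation factors: the proteins that start, extend and end the reading of an mRNA by the ribosome. They were taken from a list of gene symbols by function, written with earlier results of these data known, and each matched 1 row of the RSEM gene tables. All 45 passed the expression filter and were tested, among 17679 tested genes of the 57820 rows in each table. RNA was measured by poly-A RNA-seq in U266, a human multiple myeloma (plasma cell cancer) line. In 3 samples the cells carried a lentiviral vector that expresses MYC from the EF1A promoter (MYC cells), and 3 samples were control U266 cells. Whether the control cells had received an empty vector is not stated in the labels, nor is the number of clones or transductions behind the samples, or whether samples of a group were grown separately, so the p-values measure only the spread between these samples, which may be technical. In bulk RNA, fewer cells that express a gene and less of its RNA per cell cannot be told apart.

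Translation begins when the small ribosomal subunit, loaded with initiator tRNA by eIF2 and held by the large scaffold eIF3, is brought to the mRNA by the cap-binding complex of eIF4E, eIF4G and the helicase eIF4A. The subunit scans to a start codon under the control of eIF1, eIF1A and eIF5, and eIF5B then joins the large subunit. Elongation is driven by eEF1A, which brings in aminoacyl-tRNA, its exchange complex of eEF1B2, eEF1D and eEF1G, the translocase eEF2 and the hypusine-bearing eIF5A. The release factors eRF1 (ETF1) and eRF3 (GSPT1) end the chain, and ABCE1 splits the ribosome for reuse. MYC is a transcription factor known to promote ribosome and protein synthesis in many cell types, and it binds DNA with its partner MAX at the hexamer CACGTG, the E-box.

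Promoter sequences are shown for 3 genes of the eIF4 group, which brings the mRNA to the ribosome. Of these promoters 2 hold the hexamer more than once. EIF4A3 and EIF4H, of the same group, also hold it and are not shown. RefSeq (GRCh38.p14) gave at least 1 window of 250 bases before and 50 after a start of the gene for 36 of the 45 genes, and 50 windows in all, since some genes have several starts. The 250 upstream bases are printed 5′ to 3′ on the strand of the gene, with CACGTG in capitals. The EIF4E window lies at chr4:98929134-98929383 on the minus strand, the EIF4B window at chr12:53006206-53006455 on the plus strand and the EIF4G1 window at chr3:184314356-184314605 on the plus strand.
EIF4E: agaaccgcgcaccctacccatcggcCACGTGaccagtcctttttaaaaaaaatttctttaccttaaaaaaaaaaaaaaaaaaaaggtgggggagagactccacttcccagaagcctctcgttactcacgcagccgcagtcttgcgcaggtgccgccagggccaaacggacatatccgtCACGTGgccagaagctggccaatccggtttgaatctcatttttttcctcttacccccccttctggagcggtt
EIF4B: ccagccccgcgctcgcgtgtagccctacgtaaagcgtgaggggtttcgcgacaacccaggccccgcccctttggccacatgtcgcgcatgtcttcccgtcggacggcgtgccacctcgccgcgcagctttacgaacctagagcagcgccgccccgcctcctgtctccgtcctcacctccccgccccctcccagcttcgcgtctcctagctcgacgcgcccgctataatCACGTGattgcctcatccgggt
EIF4G1: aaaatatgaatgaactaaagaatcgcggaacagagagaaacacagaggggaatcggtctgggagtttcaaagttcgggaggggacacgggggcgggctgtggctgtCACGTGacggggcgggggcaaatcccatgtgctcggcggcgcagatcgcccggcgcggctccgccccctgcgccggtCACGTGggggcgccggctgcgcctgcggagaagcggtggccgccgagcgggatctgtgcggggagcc

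CACGTG reads the same on both strands, so a match on one is a match on the other. In the EIF4E window it begins 225 and 72 bases before the start, in the EIF4G1 window 144 and 67 bases before it, and in the EIF4B window 22 bases before it. It was present in a window of 9 of the 36 genes (25%): EIF1B, EIF3F, EIF3K, EIF4A3, EIF4B, EIF4E, EIF4G1, EIF4H and EIF5A2. The other two windows of EIF4G1 held none. Among all tested genes with a window, 1440 of 11680 (12.3%) held it in at least 1 window, and among all RefSeq genes with a window 2396 of 27305 (8.77%). The match describes the letters in these windows and not binding. The RNA of these 9 genes did not move as one: 6 were called higher in MYC cells, EIF4H was called lower, and EIF4G1 and EIF5A2 were not called. Of all 45 factors 34 were called higher and 5 lower, and of all tested genes 28.8% and 32.1%. With an offset for GC content, described below, EIF1B and EIF3F were not called, EIF4G1 was called higher and EIF5A2 lower, and the other calls stayed.

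MYC itself (ENSG00000136997.10) had 105.4, 110.3 and 92.1 CPM in MYC cells, against 3.91, 4.16 and 4.51 CPM in control cells (log2 fold change 4.60, SE 0.10, edgeR quasi-likelihood adjusted p = 9.71e-08), where CPM is the count scaled to a common library total with TMM factors. Library depth, as summed expected counts, was 27139978 to 158667309 in MYC and 55026416 to 130576913 in control libraries, and no 2 libraries of a group agreed within sampling noise. The 8 plasma cell markers were all detected, with a summed level of 3428 to 3486 TPM (a level per transcript length) in MYC and 3701 to 4220 TPM in control cells, and 5 of them were called lower and 1 higher. Markers of B, myeloid and stromal cells summed to at most 4.40 TPM in MYC and 4.74 TPM in control cells, with MS4A1, LYZ and COL1A2 at or near 0. Among them the B cell marker PAX5 and the stromal markers COL3A1 and DCN were called higher. The myeloid marker CSF1R and the stromal marker COL1A1 were called lower. T and NK cell markers summed to 13.5 to 15.3 TPM in MYC and 5.74 to 7.90 TPM in control cells, with 3 of 5 called higher and 1 lower, and NKG7 near 0. Epithelial markers summed to 7.59 to 8.69 TPM in MYC and 4.02 to 4.78 TPM in control cells, with 1 of 5 called higher, and EPCAM and KRT19 near 0. The part of these marker differences in the results on translation factors was not tested.

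Of the 45 translation factors, 34 were higher and 5 lower in MYC than in control cells at an adjusted p under 0.05 (edgeR quasi-likelihood test, Benjamini-Hochberg over all 17679 genes), and 6 were not called. Among all tested genes 28.8% were called higher and 32.1% lower (60.8% either way). The median log2 fold change of the factors was 0.44, with a range of -1.07 to 0.84, and that of all tested genes was -0.02. The CPM values of the 3 MYC and 3 control libraries did not overlap for 34 factors that were higher and 6 that were lower in MYC cells, where 32.1% and 35.1% of all tested genes were so placed. The increases were small per gene: the largest among the 45, that of EIF3E, was 1.79-fold.

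The fold changes ran with the base composition of the transcripts. Across the 45 genes, Spearman's rho between the log2 fold change and the transcripts' GC content was -0.56, and across the 17202 tested genes with a GC value it was also -0.56. Both are descriptions across genes, which share the same 6 libraries and are not independent replicates. The fold changes were therefore also taken from a fit with a GC offset, plotted for all 45 factors, which removes each library's own trend of log2 CPM on GC content (rho then -0.01 in both sets). With this offset 31 factors were called higher and 5 lower, against 29.7% and 28.7% of all tested genes, and the median was 0.33 for the factors and -0.01 for all genes. On the deposited TPM values (limma on log2(TPM + 1)) 31 were higher and 4 lower, against 21.3% and 29.7% of all tested genes. The same call in all 3 fits was reached by 28 factors that were higher and by 1, EIF1, that was lower, compared with 17.9% and 17.4% of all tested genes, and the other 16 had calls that differed between fits or no call.

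**Figure D1:**
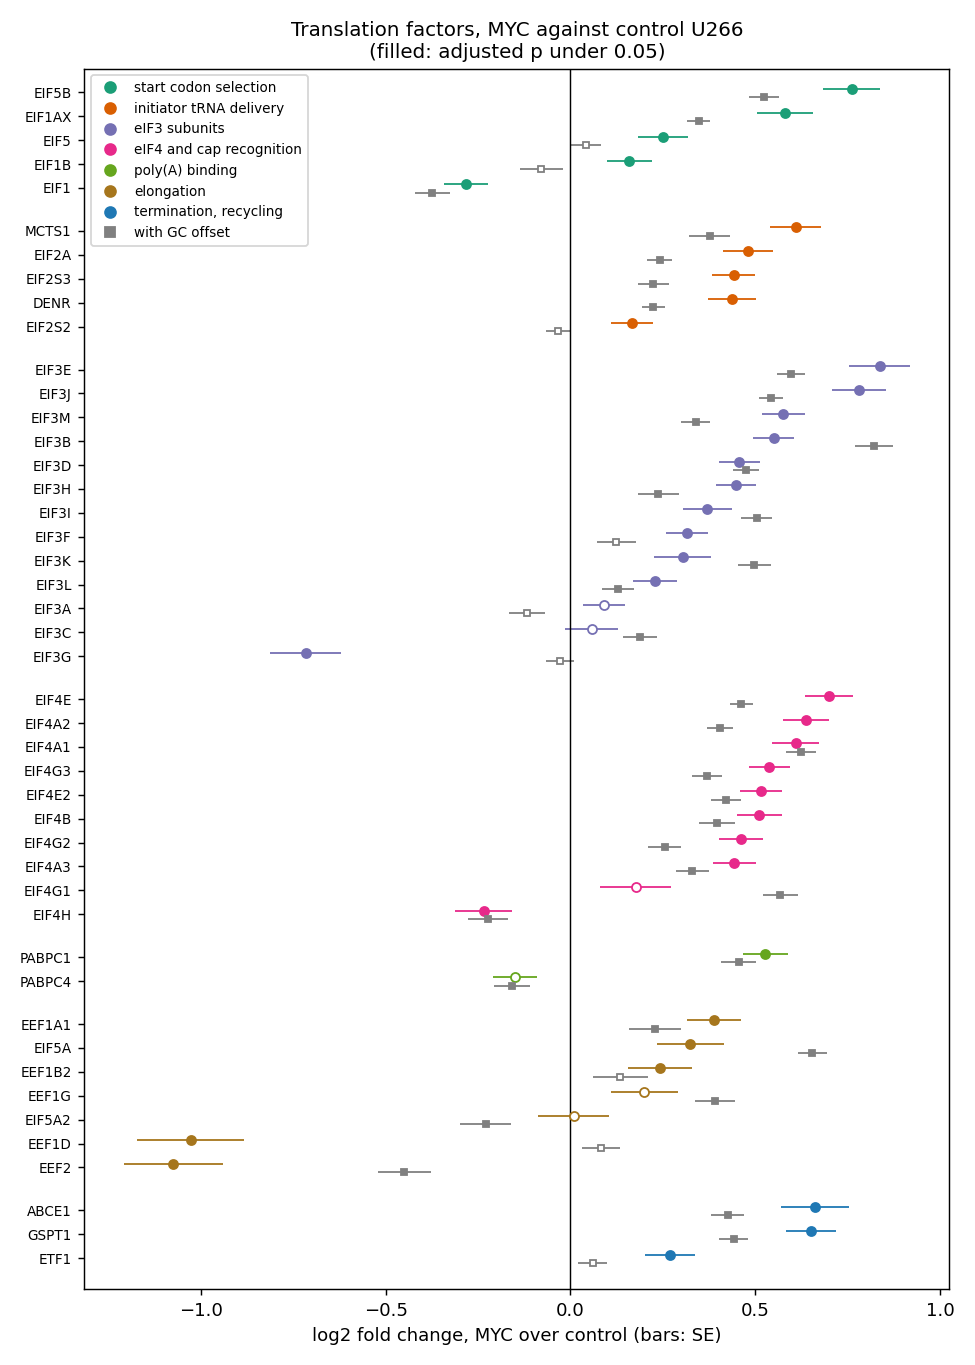
Log2 fold change of each of the 45 factors, MYC over control (x axis, bars are SE), grouped by role (y axis). Coloured circles are the edgeR fit and grey squares the fit with the GC offset, and filled symbols have an adjusted p under 0.05. Most symbols lie right of 0, EIF1 lies left of 0 in both fits, and EEF1D, EIF3G and EEF2 lie far to the left as circles (-1.03, -0.72 and -1.07) and closer to 0 as squares (0.08, -0.03 and -0.45).

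Within bands of like GC content the factors lay above the tested genes at the median. Below 40% GC the median was 0.66 for 7 factors and 0.24 for all genes, and between 40% and 45% it was 0.45 for 13 factors and 0.23 for all genes. Between 45% and 50% it was 0.39 for 11 factors and 0.13 for all genes, and between 50% and 55% it was 0.25 for 8 factors and -0.09 for all genes. Between 55% and 60% it was 0.18 for 5 factors and -0.48 for all genes. The last band, from 60%, held only EEF1D, at -1.03 with a median of -1.13 for all genes. No test was made of these bands.

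**Figure D2:**
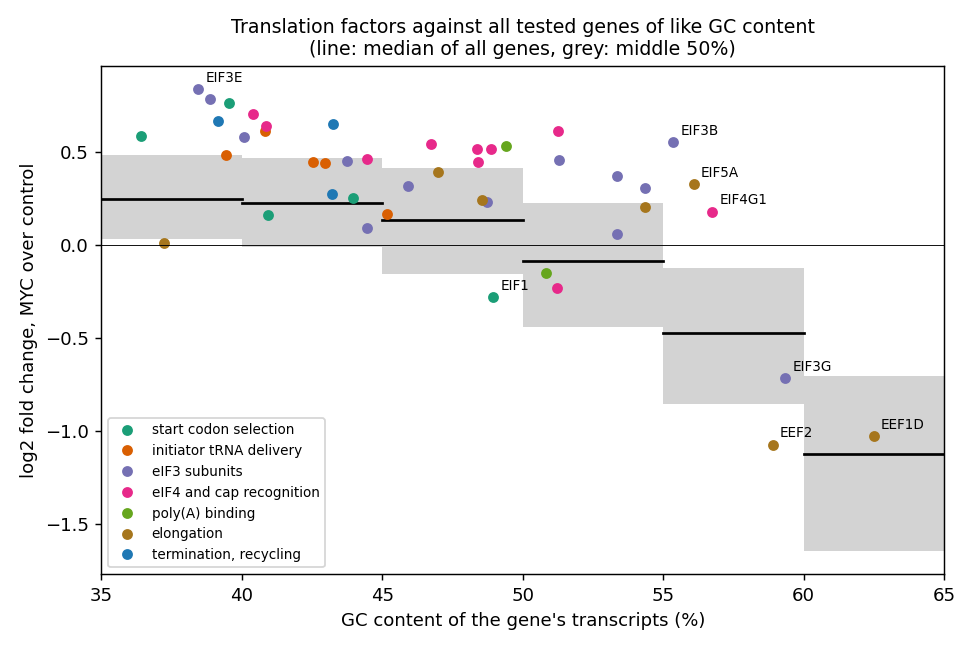
Log2 fold change, MYC over control (y axis), against the GC content of each gene's transcripts in percent (x axis). Points are the 45 factors coloured by role, black lines the median of all tested genes in each GC band and grey boxes their middle 50%, and EIF3B, EIF5A and EIF4G1 lie above their band's box while EIF1 and EEF2 lie below theirs; the outer bands take in all genes beyond the axis.

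The 5 factors that find and test the start codon split. EIF5B, the GTPase that joins the large subunit, had 159, 177 and 183 CPM in MYC cells, against 112, 97.6 and 97.3 CPM in control cells. It rose 1.70-fold (log2 fold change 0.76, SE 0.08, edgeR adjusted p = 6.61e-05), the groups did not overlap, and the value with the GC offset was 0.52. EIF1AX, the X-linked gene of the scanning factor eIF1A, had 146, 151 and 163 CPM in MYC cells, against 112, 95.4 and 100.4 CPM in control cells, again without overlap, and rose by 0.58 (0.35 with the GC offset). EIF1, which guards the choice of start codon, moved the other way. It had 896, 918 and 951 CPM in MYC cells, against 1151, 1133 and 1080 CPM in control cells, with every MYC library below every control library. EIF1 fell by 0.28 on the log2 scale (SE 0.06, edgeR adjusted p = 0.00313), and it was also lower with the GC offset (-0.37) and on TPM (-0.32). EIF5, the GTPase-activating protein of eIF2, rose by 0.25 and EIF1B, a close paralog of EIF1, by 0.16, but with the GC offset neither was called (0.04 and -0.08). The EIF1B call (edgeR adjusted p = 0.048) was also lost when any of the 6 libraries was left out, with adjusted p from 0.0567 to 0.214, and that of EIF5 without control replicate 2 (edgeR adjusted p = 0.0529).

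All 5 factors that deliver initiator tRNA or help a ribosome restart were called higher, against 28.8% of all tested genes. The largest change was in MCTS1, which works with DENR in reinitiation and recycling: 37.5, 37.8 and 35.4 CPM in MYC cells, against 25.9, 22.9 and 23.8 CPM in control cells (log2 fold change 0.61, SE 0.07, edgeR adjusted p = 0.000114). DENR, its partner, rose by 0.44. EIF2S3, the gamma subunit of eIF2 that holds the GTP, had 587, 618 and 597 CPM in MYC cells, against 462, 426 and 438 CPM in control cells, and rose by 0.44. EIF2A, an initiation factor that is not a subunit of eIF2, rose by 0.48. These 4 were called higher with the GC offset too, at 0.22 to 0.38, as were 29.7% of all tested genes. EIF2S2, the beta subunit of eIF2, rose by 0.17 (edgeR adjusted p = 0.0307) and was at -0.03 with the GC offset, and its call was lost without MYC replicate 2, control replicate 2 or control replicate 3 (edgeR adjusted p = 0.111, 0.117 and 0.114).

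eIF3 is the largest initiation factor, with 13 subunit genes here. Of these, 10 were called higher and 1 lower, against 28.8% and 32.1% of all tested genes. EIF3E had 315, 314 and 359 CPM in MYC cells, against 203, 172 and 178 CPM in control cells (log2 fold change 0.84, SE 0.08, edgeR adjusted p = 5.68e-05; 0.60 with the GC offset). EIF3J, the loosely bound subunit that acts at the decoding site, had 230.3, 247 and 254 CPM in MYC cells, against 155, 132 and 139 CPM in control cells, a log2 fold change of 0.78 (0.54 with the GC offset). EIF3B, a scaffold subunit, had 365, 346 and 336 CPM in MYC cells, against 244, 237 and 234 CPM in control cells. Its log2 fold change of 0.55 was larger with the GC offset (0.82). The values of all 3 genes were higher in every MYC library than in any control library. EIF3M, EIF3D, EIF3H, EIF3I, EIF3F, EIF3K and EIF3L rose by 0.23 to 0.58. Of these only EIF3F was not called with the GC offset (0.12, edgeR adjusted p = 0.0739).

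The remaining 3 eIF3 subunits were not called higher. EIF3A, the largest subunit, had 868, 933 and 889 CPM in MYC cells, against 847, 851 and 829 CPM in control cells, without overlap, and was not called (log2 fold change 0.09, edgeR adjusted p = 0.201; -0.12 with the GC offset, edgeR adjusted p = 0.0635). EIF3C had 399, 397 and 353 CPM in MYC cells, against 366, 391 and 347 CPM in control cells, and these overlapped (log2 fold change 0.06, edgeR adjusted p = 0.513). EIF3G, an RNA-binding subunit, had 314, 283 and 246 CPM in MYC cells, against 433, 499.7 and 453 CPM in control cells, and fell by 0.72 on the log2 scale (SE 0.09, edgeR adjusted p = 0.00027). Its transcripts are 59.3% GC, and with the GC offset its value was -0.03 (edgeR adjusted p = 0.543). On the TPM scale EIF3G was lower in MYC cells (log2 fold change -0.45, limma adjusted p = 0.000506).

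Counts of EIF3C depend on a near-identical copy, EIF3CL, with which reads are shared. EIF3CL had 111.1 ± 28.8 CPM in MYC and 128.0 ± 14.2 CPM in control cells, and the 2 genes together had 494 ± 53.6 CPM in MYC and 496 ± 24.99 CPM in control cells (SD, n = 3 each). How RSEM divided the reads between the copies cannot be checked in these tables, so EIF3C is uncertain. Its direction also depended on the scale: on log2(TPM + 1) it was lower in MYC cells (-0.36, limma adjusted p = 0.00377), with an effective length offset it was -0.33, and with the GC offset it was 0.19 (edgeR adjusted p = 0.00714).

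Levels per length show how the subunits stand to each other. In control libraries EIF3G was the highest subunit (706 ± 23.7 TPM) and EIF3J the lowest (102 ± 9.01 TPM, SD, n = 3). In MYC libraries EIF3L was the highest (751 ± 10.7 TPM) and EIF3J (166 ± 14.5 TPM) and EIF3B (171 ± 4.92 TPM, SD, n = 3) were lowest, and the last 2 did not differ beyond their spread. The highest subunit exceeded the lowest 4.96, 4.34 and 4.35-fold in MYC libraries, against 6.10, 7.64 and 7.22-fold in control libraries. This ratio of highest to lowest was thus smaller in every MYC library, on TPM without a GC offset. With the GC offset the log2 fold change of EIF3G, the highest in control libraries, was -0.03, and that of EIF3J was 0.54. No test was made of this ratio, since the genes at its ends were read from the same values.

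**Figure D3:**
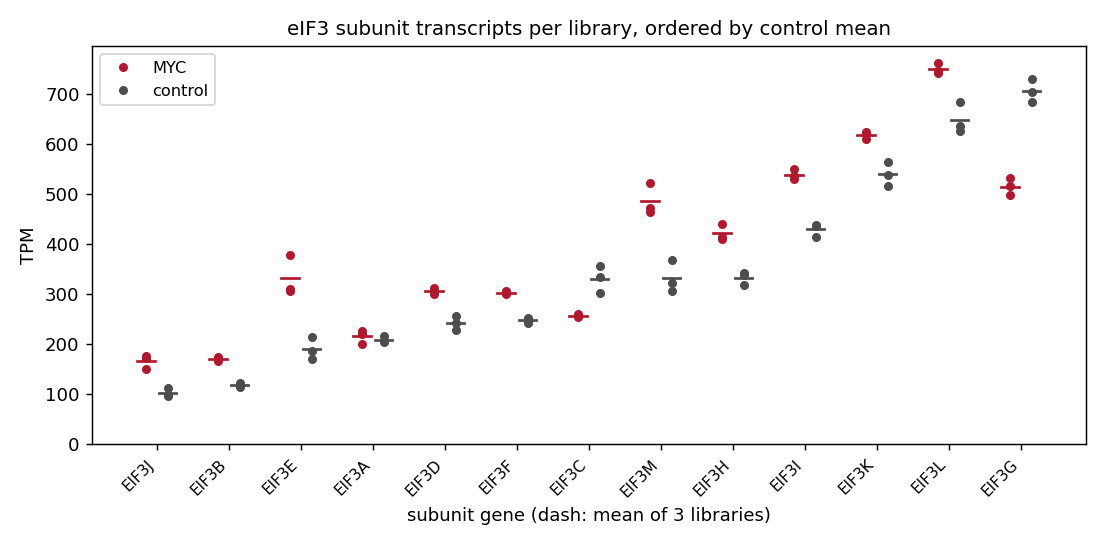
TPM (y axis) of each of the 13 eIF3 subunit genes (x axis, ordered by the control mean) in the 3 MYC libraries (red) and the 3 control libraries (grey), with a dash at each mean. Red points lie above grey points for the lowest subunits, EIF3J, EIF3B and EIF3E, and below them for EIF3C and EIF3G.

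In the cap-binding and helicase group 8 of 10 genes were called higher and 1 lower, against 28.8% and 32.1% of all tested genes. EIF4E, the cap-binding protein, had 118, 117 and 126 CPM in MYC cells, against 79.8, 70.8 and 72.0 CPM in control cells. It rose 1.62-fold (log2 fold change 0.70, SE 0.06, edgeR adjusted p = 4.34e-05), and with the GC offset the value was 0.46. The helicase paralogs EIF4A1 and EIF4A2 rose by 0.61 and 0.64. EIF4A1 had 789, 768 and 708 CPM in MYC cells, against 487, 512 and 486 CPM in control cells. Neither its values nor those of EIF4A2 overlapped between the groups. EIF4B, which stimulates the helicase, had 1637, 1753 and 1671 CPM in MYC cells, against 1225, 1155 and 1171 CPM in control cells (log2 fold change 0.51). The scaffold paralogs EIF4G2 and EIF4G3 rose by 0.46 and 0.54, EIF4E2, a cap-binding protein known mainly as a repressor, by 0.52, and EIF4A3, which works in the exon junction complex, by 0.44. The GC offset and the TPM scale gave the same call for all 8, where 17.9% of all tested genes were called higher in all 3 fits.

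The other two genes of the group were EIF4G1 and EIF4H. EIF4G1, the main scaffold between cap and ribosome, had 886, 853 and 693 CPM in MYC cells, against 684, 758 and 710.0 CPM in control cells. The groups overlapped and it was not called (log2 fold change 0.18, SE 0.10, edgeR adjusted p = 0.142). It was called higher without MYC replicate 3 (0.28, edgeR adjusted p = 0.00368), with the GC offset (0.57, edgeR adjusted p = 1.14e-05) and on log2(TPM + 1) (0.26, limma adjusted p = 0.0276), and its transcripts are 56.7% GC. EIF4H, a helper of eIF4A, had 326, 326 and 272 CPM in MYC cells, against 363, 361 and 364 CPM in control cells, and fell by 0.23 on the log2 scale (edgeR adjusted p = 0.0267; -0.22 with the GC offset). On TPM it was at -0.05 (limma adjusted p = 0.45), and its call was lost without control replicate 3 (edgeR adjusted p = 0.0699).

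The 2 poly(A)-binding proteins parted. PABPC1, the main cytosolic form, had 2366, 2497 and 2315 CPM in MYC cells, against 1681, 1651 and 1649 CPM in control cells, and rose by 0.53 (SE 0.06, edgeR adjusted p = 0.000124; 0.46 with the GC offset). On the TPM scale the rise was smaller, at 0.29. PABPC4 had 649, 658 and 625 CPM in MYC cells, against 749, 711 and 684 CPM in control cells. The PABPC4 values were lower in every MYC library but missed the threshold (log2 fold change -0.15, edgeR adjusted p = 0.0557), and were called lower with the GC offset (-0.16, edgeR adjusted p = 0.0197).

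Among the elongation factors, EEF1A1 was by far the most abundant of the 45 genes, with 21765, 22542 and 20885 CPM in MYC cells, against 16506, 17295 and 15966 CPM in control cells. It rose 1.31-fold (log2 fold change 0.39, SE 0.07, edgeR adjusted p = 0.00177; 0.23 with the GC offset). EIF5A, which frees ribosomes stalled at sequences such as proline runs, had 385, 341 and 305 CPM in MYC cells, against 259, 293 and 271 CPM in control cells, and rose by 0.32 (0.66 with the GC offset). That call was lost without control replicate 1 or 3 (edgeR adjusted p = 0.057 and 0.0504). EIF5A2, its low paralog, was not called (10.9, 10.3 and 10.7 CPM in MYC cells, against 12.03, 9.58 and 10.1 CPM in control cells) and was at -0.23 with the GC offset (edgeR adjusted p = 0.0193).

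The subunits of the exchange complex of eEF1A differed. EEF1B2 rose by 0.24 (edgeR adjusted p = 0.0377), a call lost with the GC offset (0.13) and without MYC replicate 1 or 2 or control replicate 1 or 3 (edgeR adjusted p from 0.0909 to 0.154). EEF1G had 2757, 2547 and 2232 CPM in MYC cells, against 2085, 2352 and 2124 CPM in control cells, which overlapped (log2 fold change 0.20, edgeR adjusted p = 0.0881). It was called higher without MYC replicate 3 (0.28, edgeR adjusted p = 0.00692) and with the GC offset (0.39, edgeR adjusted p = 0.000292). EEF1D had 79.1, 72.0 and 51.0 CPM in MYC cells, against 130, 148 and 133 CPM in control cells, and fell by 1.03 on the log2 scale (SE 0.14, edgeR adjusted p = 0.000364). It is the most GC-rich of the 45 genes (62.5%), and with the GC offset its value was 0.08 (edgeR adjusted p = 0.204).

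EEF2, the translocase, gave answers that differed between counts and TPM. It had 3522, 3187 and 2388 CPM in MYC cells, against 6154, 6824 and 6182 CPM in control cells, and its counts fell 2.11-fold (log2 fold change -1.07, SE 0.13, edgeR adjusted p = 0.000195; -0.45 with the GC offset). Its deposited TPM was 3305, 3081 and 3375 in MYC cells, against 3279, 3613 and 3183 in control cells, so the groups overlapped (log2 fold change -0.04, limma adjusted p = 0.695). The effective length that RSEM assigned to EEF2, a mean over its transcripts weighted by their estimated use, was 1288, 1287 and 941 bases in MYC libraries, against 2513, 2382 and 2541 bases in control libraries. With these lengths as an offset in the count fit the log2 fold change was -0.02 (edgeR adjusted p = 0.882). What lies behind the shorter length was not tested, and a fall of EEF2 is reported for its counts only.

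Effective lengths differed for a few other factors too. A ratio past 1.2-fold in either direction, a limit set after the values were seen, with no overlap between groups, was met upward by EIF3C (1.29) and downward by EIF3G (0.81) and EEF2 (0.47), and by 2.17% and 4.99% of all tested genes. Among those short of that limit, also without overlap, were EIF4H (0.85), EEF1D (0.87), EIF5A (0.88) and EIF4G1 (0.91). So was PABPC1 (1.14), with 1301, 1303 and 1442 bases in MYC libraries, against 1202, 1162 and 1172 bases in control libraries. For these genes the count and the TPM give different sizes of change, and for EIF3C different directions. For the factors as a whole the effective length offset gave 35 higher and 4 lower, against 26.1% and 29% of all tested genes.

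**Figure D4:**
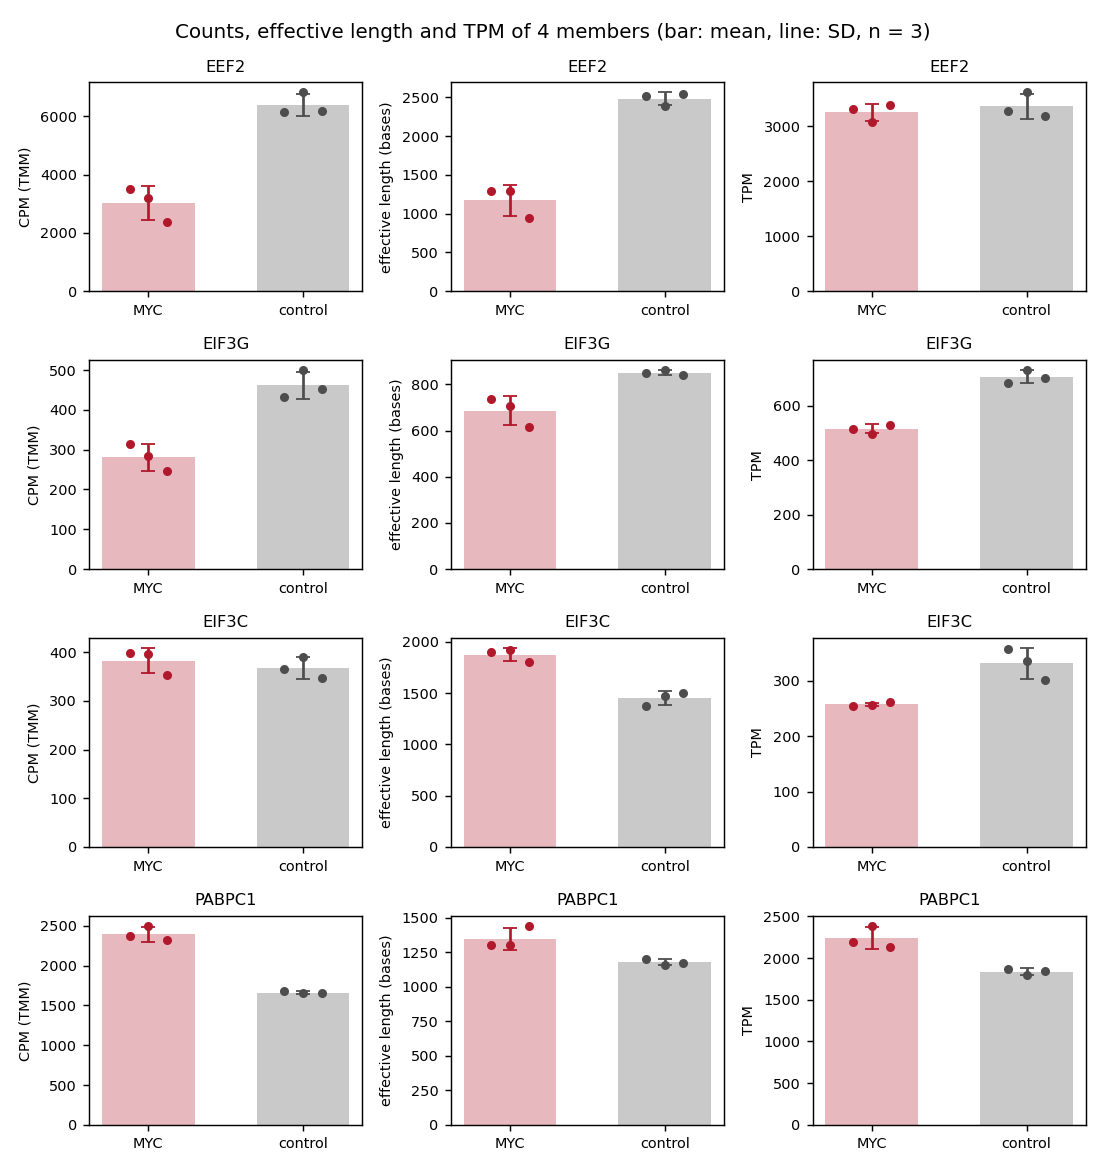
CPM (left), effective length in bases (middle) and TPM (right) of EEF2, EIF3G, EIF3C and PABPC1, with MYC libraries in red and control libraries in grey. Bars are means, lines SD and points the 3 libraries, and EEF2 is lower in MYC cells in CPM and in length but overlaps in TPM.

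All 3 factors of termination and recycling were called higher, against 28.8% of all tested genes. GSPT1, the GTPase eRF3, had 324, 336 and 343 CPM in MYC cells, against 232, 205 and 203 CPM in control cells (log2 fold change 0.65, SE 0.07, edgeR adjusted p = 7.46e-05; 0.44 with the GC offset). ABCE1, the recycling ATPase, had 358, 367 and 400.1 CPM in MYC cells, against 269.5, 214 and 228 CPM in control cells, and rose by 0.66 (0.43 with the GC offset). ETF1, the release factor eRF1 that reads the stop codon, rose by 0.27 (edgeR adjusted p = 0.00853) and was not called with the GC offset (0.06) or on TPM (0.24, limma adjusted p = 0.0705).

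Summed per library, the 45 transcripts made up 3.70%, 3.80% and 3.83% of all TPM in MYC libraries, against 3.28%, 3.22% and 3.15% in control libraries. Of the summed level, 37750 ± 704 TPM in MYC and 32171 ± 674 TPM in control cells, EEF1A1 alone held 15343 ± 456 TPM in MYC and 12053 ± 330.2 TPM in control cells (SD, n = 3 each). Without it the sums were 22407 ± 299 TPM in MYC and 20118 ± 347 TPM in control cells. By role, the ratio of MYC over control was 1.44 for termination and recycling, 1.35 for eIF4, 1.27 for initiator tRNA delivery, 1.19 for elongation, 1.16 for poly(A) binding and 1.15 for eIF3. The libraries did not overlap in any of these. The start codon group, which EIF1 dominates, had 2303 ± 194 TPM in MYC and 2596 ± 134 TPM in control cells (SD, n = 3 each), and its libraries overlapped. No test was made of these sums.

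**Figure D5:**
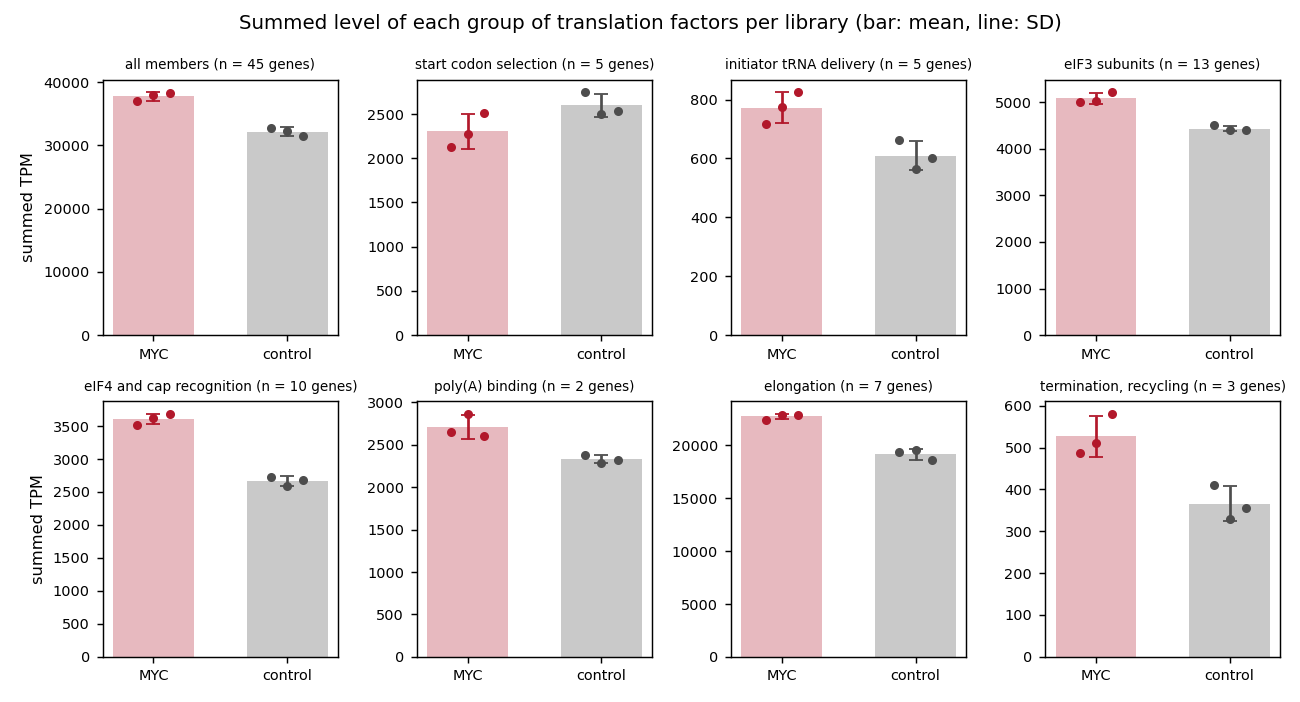
Summed TPM per library (y axis, from 0) of all 45 factors and of each role, with MYC libraries in red left of control libraries in grey. Bars are means, lines SD and points the 3 libraries, and the groups overlap only for start codon selection.

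Ratios between paralogs, on the TPM scale within each library, asked whether close relatives moved together. With 3 against 3 libraries the exact two-sided permutation test cannot go below p = 0.1, so none of the 6 ratios could pass. EIF1 over EIF1B was 18.2, 19.0 and 18.5 in MYC libraries, against 26.5, 24.8 and 25.4 in control libraries (difference of log2 ratios -0.46, exact p = 0.1, adjusted 0.15). PABPC1 over PABPC4 was 4.87, 4.94 and 4.58 in MYC libraries, against 3.67, 3.64 and 3.81 in control libraries (0.37, exact p = 0.1, adjusted 0.15). Both ratios were apart without overlap, one downward and the other upward in MYC cells. EIF4E over EIF4E2 was 2.10, 2.05 and 2.13 in MYC libraries, against 1.78, 1.67 and 1.77 in control libraries (0.27, exact p = 0.1, adjusted 0.15). EIF5A over EIF5A2 was 49.5, 43.5 and 58.5 in MYC libraries, against 26.2, 38.4 and 36.3 in control libraries (0.60, exact p = 0.1, adjusted 0.15). As ratios of CPM, the PABPC1 over PABPC4 difference was 0.68, and that of EIF5A over EIF5A2 was 0.31 with overlapping groups. The other two TPM ratios overlapped between groups. EIF4G1 over EIF4G3 was 12.8, 13.7 and 11.7 in MYC libraries, against 13.7, 15.9 and 14.6 in control libraries (-0.21, exact p = 0.2, adjusted 0.24), and EIF4A1 over EIF4A2 was 1.86, 1.83 and 1.64 in MYC libraries, against 1.72, 1.81 and 1.64 in control libraries (0.04, exact p = 0.6, adjusted 0.6). As a ratio of CPM, EIF4G1 over EIF4G3 differed by -0.37 without overlap. None of these ratios was adjusted for GC content. With the GC offset the log2 fold changes were 0.46 for EIF4E and 0.42 for EIF4E2. EIF4G1 was at 0.57 and EIF4G3 at 0.37, the other direction from their ratio, and EIF4A1 was at 0.62 and EIF4A2 at 0.40. EIF1 and EIF1B (-0.37 and -0.08), PABPC1 and PABPC4 (0.46 and -0.16) and EIF5A and EIF5A2 (0.66 and -0.23) kept the direction of their ratios.

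Outside the 45, a list of 45 related genes (further initiation factors, regulators, modifying enzymes and mitochondrial translation factors) showed a less even picture. Of these, 19 were called higher and 10 lower (edgeR), against 28.8% and 32.1% of all tested genes, with a median log2 fold change of 0.08. With the GC offset 21 were higher and 13 lower, against 29.7% and 28.7% of all tested genes. Of the 6 genes of eIF2 and its exchange factor eIF2B outside the 45, 4 were called higher, against 28.8% of all tested genes. They were EIF2S1, the alpha subunit that stress kinases phosphorylate (0.53), EIF2B1 (0.58), EIF2B3 (0.48) and EIF2B5 (0.43). All 4 were called higher with the GC offset too, against 29.7% of all tested genes. Of 6 eIF2 kinases and phosphatase subunits 2 were called higher and 2 lower, against 28.8% and 32.1% of all tested genes. EIF2AK1 (0.42) and EIF2AK2 (0.25) rose. EIF2AK3, the kinase PERK of the endoplasmic reticulum, and the phosphatase subunit PPP1R15A fell, by 0.49 and 2.03. EIF2AK2 was at 0.01 with the GC offset, where the other three kept their calls, and its call was lost without MYC replicate 2, control replicate 2 or control replicate 3 (edgeR adjusted p = 0.0643, 0.092 and 0.0804).

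Of 13 regulators of eIF4, 3 rose and 5 fell, against 28.8% and 32.1% of all tested genes. EIF4EBP1, the inhibitor that competes with eIF4G for eIF4E, had 67.4, 50.1 and 34.6 CPM in MYC cells, against 154, 166 and 157 CPM in control cells (log2 fold change -1.66, SE 0.20, edgeR adjusted p = 0.000152). With the GC offset it was lower by a smaller amount (-0.55, edgeR adjusted p = 0.00104), and its transcripts are 62.6% GC. Its paralogs, named after their values were seen, were higher: EIF4EBP2 at 0.22 (edgeR adjusted p = 0.0109) and the low EIF4EBP3 at 1.03 (edgeR adjusted p = 0.0177; 1.47 with the GC offset). The EIF4EBP2 call was lost with the GC offset (0.0081), on TPM (0.17, limma adjusted p = 0.121) and without MYC replicate 2 or control replicate 3 (edgeR adjusted p = 0.0554 and 0.0626). MKNK2, a kinase of eIF4E, fell by 1.58 (-0.49 with the GC offset). The ribosomal S6 kinase genes parted, RPS6KB1 at 0.64 and RPS6KB2 at -0.70, but RPS6KB2 was at 0.06 with the GC offset (edgeR adjusted p = 0.483). Among 11 other initiation, elongation and rescue factors, 4 rose and 3 fell, against 28.8% and 32.1% of all tested genes. With the GC offset 8 of them were called higher and 3 lower, against 29.7% and 28.7% of all tested genes. EEFSEC, the elongation factor for selenocysteine, named after its values were seen, turned between these fits, at -0.63 (edgeR adjusted p = 0.00138) and at 0.16 with the GC offset (edgeR adjusted p = 0.0101). EEF2K, the kinase that inhibits eEF2, had 41.2, 41.3 and 37.1 CPM in MYC cells, against 24.99, 25.8 and 26.2 CPM in control cells, and rose by 0.63 (0.70 with the GC offset). EEF1E1, which belongs to the aminoacyl-tRNA synthetase complex, rose by 0.58, and DOHH, which completes the hypusine of eIF5A, fell by 2.31 (-0.46 with the GC offset). EEF1A2, the tissue-restricted paralog of EEF1A1, was called higher but was low in both groups, at 0.63 ± 0.13 CPM in MYC and 0.080 ± 0.0096 CPM in control cells (SD, n = 3 each). EIF6, which keeps the subunits apart, was at -0.06 (edgeR adjusted p = 0.656) but at 0.58 with the GC offset (edgeR adjusted p = 9.19e-06). Of 9 mitochondrial translation factors 6 were called higher, against 28.8% of all tested genes. GFM1 (0.36), GFM2 (0.47), MTRF1 (0.65) and MRRF (0.62) were among them, and the other 3 had positive fold changes that were not called. With the GC offset 6 were called higher and 1 lower, against 29.7% and 28.7% of all tested genes.

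Reads that other genes could supply bear on a few of these values. The library kit does not mark strand, so reads of 23 factors whose exons overlap another gene cannot all be told apart from it, and for 12 the overlapping gene reached over 5% of the factor's own count in some library. The highest were SERP1 beside EIF2A (275%), SPG11 beside EIF3J (91.7%) and OTUD4 beside ABCE1 (36.3%). These percentages use the count of the whole neighbouring gene, while the shared exon bases numbered 153, 187 and 276. They do not give the number of reads in the shared bases. Rows named as pseudogenes, by the factor's symbol followed by P and a number, existed for 27 factors. They summed to over 2% of the parent's count only for EIF3F (1.95% to 2.32% in MYC and 2.18% to 2.42% in control libraries) and EIF4E (12.5% to 15.5% in MYC and 12.7% to 13.7% in control libraries). Copies with other names were not counted.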

How the data were processed

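Per the labels' protocols, total RNA was column-purified, poly-A enriched and turned into libraries by an unstranded kit. Per the submitters' processing notes, cutadapt, TopHat2 and the build GRCh37 were used, with no version or annotation given in the sources used here. RSEM made the deposited tables, per the file headers. The deposited expected count is RSEM's estimate, in which a read that maps to several genes is split, the deposited TPM is scaled by the authors for length and depth, and the deposited effective length is in bases. Gene names came from a table that matched 51996 of the 57820 identifiers, and GC content from GENCODE 29 transcripts (GRCh38) matched by identifier.

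The rounded expected counts went into the quasi-likelihood F test of edgeR 4.0.16 (R 4.3.3; filterByExpr, TMM, group as the only term, Benjamini-Hochberg over 17679 genes, called at 0.05), and the SE was derived from the F statistic. On simulated counts, with few genes changed and no GC trend, the test was checked only for recovery of large changes. These settings differ from the data, so that check gives no support for the calls made here. The alternatives were RLE factors, DESeq2 1.42.0, no expression filter, a mean CPM of at least 5, limma 3.58.1 with a trend on log2(TPM + 1) and log2(TPM + 0.1), offsets for effective length and for GC content (loess, span 0.4), a replicate block, and each library left out. A fold change on log2(TPM + 1) understates the change of low genes. Related genes were named by rule: up to 4 called genes per list by smallest adjusted p, and EIF2S1, EIF4EBP1 and EIF6. The members and lists were chosen with earlier results of these data known, so no p is given over a list. Depth ran from 27139978 to 158667309 summed counts per library, and the reads carry no molecular identifiers, so the spread between libraries is the error given.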

Additional observations from a re-analysis of the deposited data

How the results depend on the processing

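The number of the 45 factors called higher (34) was 29 to 35 and the number called lower (5) was 4 to 6 across the alternatives, and 37 of the 45 kept their call with each of the 6 libraries left out. The number called higher was 30 to 35 with a library left out (30 without control replicate 3 and 35 without MYC replicate 3). Over all genes, a mean CPM of at least 5 gave 3694 lower against 5671, with fewer genes tested. The GC offset turned 5 of the 45, EIF1B (-0.078), EIF2S2 (-0.032), EIF3A (-0.12, not called), EEF1D (0.082) and EIF5A2 (-0.23), and, of the related genes named, RPS6KB2 (0.065), EIF6 (0.58) and EEFSEC (0.16). log2(TPM + 1), log2(TPM + 0.1) and the effective length offset turned EIF3C (-0.36, -0.36 and -0.33). EIF5A2 turned from 0.0084 to -0.13 on log2(TPM + 1) and to -0.11 with the effective length offset, and was called in neither. On log2(TPM + 1) the calls of EIF1B, EIF5, EIF2S2, EIF4H, EEF2 and ETF1 were lost, without an expression filter those of EIF1B, EIF5, EIF2S2, EIF3L and EEF1B2, and at a mean CPM of at least 5 that of EIF1B, where PABPC4 was called lower. DESeq2 called EEF1G higher and changed no other call among the 45, and RLE factors changed none. As CPM ratios, EIF4G1/EIF4G3 was -0.37, EIF5A/EIF5A2 0.31, PABPC1/PABPC4 0.68 and EIF4E/EIF4E2 0.19, with the cause not tested. The titles share numbers 1 to 3 between groups, but same-numbered libraries did not deviate together (correlations -0.05, 0.08 and 0.11), so the numbers were not taken as pairs. With the replicate block 32 factors were called higher, EIF1B and EIF2S2 losing their calls, and with the block and the GC offset also 32, with EIF1B at -0.079, EIF2S2 -0.032, EIF3A -0.12, EEF1D 0.078, EIF5A2 -0.22, RPS6KB2 0.058, EIF6 0.58 and EEFSEC 0.16. EIF4EBP3 gave no value at a mean CPM of at least 5. What depth limits was not tested, and libraries of a group differed by 8.45 to 40.4 times counting noise (chi-square per degree of freedom).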
